A study of Mus musculus with 6 samples.

Results

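The genes described here are 37 components of the centromere, the kinetochore, the spindle checkpoint and the machinery that starts anaphase, together called the kinetochore module below. They were taken from a fixed list, each read from the probe set with the highest mean over 6 arrays, out of 18193 genes that the array annotation pairs with a probe set of their own. All 37 were found. Sgol1 and Sgol2, the shugoshins, stand in the annotation as Sgo1 and Sgo2a. The samples were T cells purified by negative selection from single spleens of male C57BL/6 mice aged 10 weeks, hybridized to Affymetrix 1-colour arrays. One group was 3 mice without the microRNA miR-142 (genotype miR-142 KO, here KO), and the other was 3 wild-type littermates (WT). The labels name no other allele, no treatment and no design of the deletion, and negative selection removes unwanted cells without selecting T cells themselves. Values are log2 probe-set intensities, so a difference of 1 is a 2-fold change, and the number of arrays limits their precision.

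The kinetochore is the protein assembly on each centromere that holds the chromosome to the spindle. Its inner part is built on the histone variant CENP-A, its outer part binds microtubules, and unattached kinetochores send the checkpoint signal that keeps the anaphase-promoting complex inactive. Most of these genes are transcribed mainly in dividing cells, in late S, G2 and M phase, whereas resting T cells of the spleen are largely outside the cell cycle.

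The microRNA that the KO mice lack has these mature arms in RefSeq (GRCm38.p6), shown with the seed, bases 2 to 8, in capitals because they are the molecules removed. They lie on the plus strand at chr11:87756867-87756887 and chr11:87756903-87756925.
mmu-miR-142a-5p: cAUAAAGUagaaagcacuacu
mmu-miR-142a-3p: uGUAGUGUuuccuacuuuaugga
The host transcript listed as Mir142 read 7.93, 8.13 and 7.67 in the WT arrays and 5.97, 5.88 and 5.90 in the KO arrays. Every KO array lay below every WT array, and the difference was -1.99 ± 0.13 (SE, n = 3 per group, limma adjusted p = 6.6e-05). Whether that probe set lies in the deleted stretch is not known here, and the mature arms were not measured, so it is a partial check of the genotype labels.

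Array medians ran from 5.70 to 5.77, and arrays of the same genotype correlated at 0.986 to 0.996 across probe sets. The hybridization controls read 10.10 to 10.30 in WT and 9.80 to 9.91 in KO. For Actb, the 3' control probe set exceeded the 5' one, a gap that grows with RNA degradation, by 0.16 to 0.23 in WT and by 0.32 to 0.40 in KO. T cell markers, of which 12 of 14 were measured, averaged 12.14 to 12.15 in WT and 9.32 to 10.75 in KO. Markers of several other blood cells were higher in KO, as given after the module's values.

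In KO, 32 of the 37 module genes rose, 1 fell and 4 did not pass the test, with a median difference of 2.23. Of all genes at their brightest probe set, 18.6% rose and 18.6% fell, with a median difference of -0.06. A rise of at least 4-fold was seen for 23 module genes, against 3.3% of all genes. All 3 KO arrays lay above all 3 WT arrays for 33 of the 37 and below them for 2, against 24.1% and 29.7% of all genes. The rising genes differed by 0.33 to 2.88, and 30 of the 32 rose at least 2-fold. The mean of the 37 was 8.45, 8.49 and 8.67 in the WT arrays and 10.20, 10.61 and 10.14 in the KO arrays. Rose, fell and changed mean a Benjamini-Hochberg adjusted p below 0.05 in limma over all 45037 probe sets tested. In RNA of a whole preparation, a change in the share of cells that express a gene and a change in its RNA per cell cannot be told apart.

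**Figure D1:**
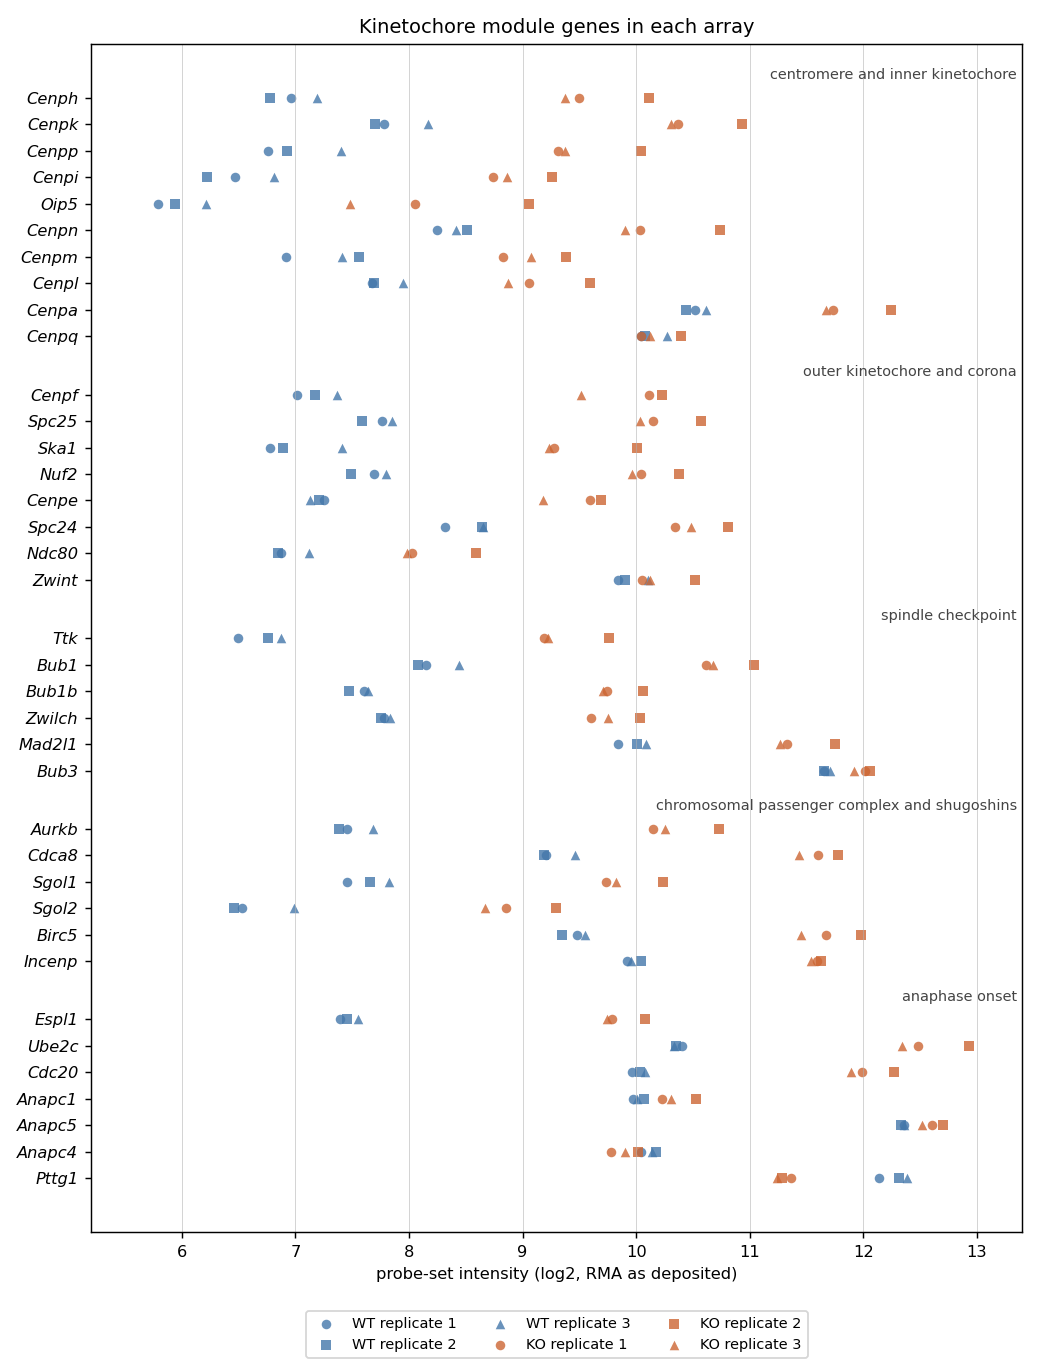
Log2 probe-set intensity (x axis) of each of the 37 module genes (rows, grouped by role) in the 3 WT arrays (blue) and the 3 KO arrays (orange), with a marker shape for each replicate. The KO arrays lie to the right of the WT arrays for 33 genes, KO replicate 2 is the highest KO array for 36, and Pttg1 is displaced to the left.

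Before the values, the start regions of some members are shown. Many genes that peak in G2 and M phase carry a cell cycle homology region (CHR, letters TTTGAA) and CCAAT boxes near their start. The CHR is the motif through which the DREAM and B-Myb complexes are known to act. RefSeq windows of 250 bases before to 50 after the start (GRCm38.p6) were found for 32 of the 37 members. TTTGAA or its reverse TTCAAA was present in 14 of the 32 (43.8%), against 20.2% of 27025 genes with such a window, coding or not. Within 50 bases of the start these letters occurred in 13 of the 32 (40.6%), against 5.94% of all. CCAAT or its reverse ATTGG was present in 24 (75.0%), against 41.1%, and both motifs in 13 (40.6%), against 7.97%. An E2F word (TTTCCCGC, TTTCGCGC, TTTGCCGC or TTTGGCGC, either strand) was present in 2 (6.25%), against 2.6%. The 14 genes with TTTGAA or its reverse all rose, out of 27 rising genes with a window. They include Bub3, whose call was lost under several settings. None of the 5 other genes with a window held the letters, too few for a contrast beside 20.2% of all genes. These are matches of letters, not sites shown to be bound.

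For 7 of the risers with large differences whose single window holds a match, stretches of 30 bases are given, to let the surroundings be compared. Each is turned so that TTTGAA, in capitals, reads forward.
Cenpf, chr1:189688067-189688096, minus strand: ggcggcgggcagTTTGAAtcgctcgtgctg
Ttk, chr9:83834684-83834713, minus strand: tccggaaacacgTTTGAAatttccccgctg
Spc25, chr2:69206172-69206201, minus strand: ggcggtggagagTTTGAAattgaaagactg
Espl1, chr15:102296254-102296283, plus strand: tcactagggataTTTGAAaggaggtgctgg
Bub1b, chr2:118598231-118598260, plus strand: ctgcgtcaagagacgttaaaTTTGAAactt
Ube2c, chr2:164769888-164769917, minus strand: ccgccgcccgcgTTTGAAttgcaaccctcc
Oip5, chr2:119618456-119618485, plus strand: cgccatatttcTTTGAAgcgcgcgcctctt

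For Espl1 and Cdc20, which rose, and for Pttg1, which fell, and Cenpq, which did not pass the test, the 250 bases before the start are shown on the gene's own strand. Capitals mark the CHR letters and CCAAT on either strand.
Espl1, chr15:102296043-102296292, plus strand: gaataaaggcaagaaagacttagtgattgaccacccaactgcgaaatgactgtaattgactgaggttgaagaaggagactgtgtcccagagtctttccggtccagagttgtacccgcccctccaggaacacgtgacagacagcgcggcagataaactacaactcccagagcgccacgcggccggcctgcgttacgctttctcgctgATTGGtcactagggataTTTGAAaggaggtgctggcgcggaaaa
Cdc20, chr4:118437344-118437593, minus strand: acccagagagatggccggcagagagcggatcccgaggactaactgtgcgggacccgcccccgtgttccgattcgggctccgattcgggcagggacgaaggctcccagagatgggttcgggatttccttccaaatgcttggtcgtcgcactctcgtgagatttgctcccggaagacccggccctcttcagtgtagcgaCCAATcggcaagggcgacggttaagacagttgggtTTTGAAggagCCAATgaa
Pttg1, chr11:43425982-43426231, minus strand: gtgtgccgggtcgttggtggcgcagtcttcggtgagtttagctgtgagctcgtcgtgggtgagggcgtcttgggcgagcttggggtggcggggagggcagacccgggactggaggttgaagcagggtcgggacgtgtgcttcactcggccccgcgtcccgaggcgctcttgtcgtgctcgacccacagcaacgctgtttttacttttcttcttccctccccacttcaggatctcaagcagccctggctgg
Cenpq, chr17:40934575-40934824, minus strand: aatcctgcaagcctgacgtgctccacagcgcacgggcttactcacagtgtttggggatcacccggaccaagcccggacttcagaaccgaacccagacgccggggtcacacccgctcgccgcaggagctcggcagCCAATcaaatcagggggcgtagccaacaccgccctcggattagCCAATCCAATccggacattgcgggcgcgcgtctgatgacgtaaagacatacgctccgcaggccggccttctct
In Espl1 the CHR letters start 27 bases before the start and the reversed CCAAT 44 bases before it. Those of Cdc20 start 18 bases before it, between CCAAT boxes 53 and 8 bases before it. Cenpq has 3 CCAAT matches and no CHR letters in this stretch, and Pttg1 has neither.

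At the centromere and the inner kinetochore, 9 of 10 genes rose, with a median difference of 2.03. Cenph, a subunit of the constitutive centromere network that links CENP-A chromatin to the outer kinetochore, read 6.96, 6.78 and 7.19 in WT and 9.50, 10.11 and 9.37 in KO, a rise of 2.69 ± 0.20 (SE, n = 3 per group, limma adjusted p = 1.3e-04). The groups were far apart, and KO replicate 2 was the highest. Cenpk, its partner in the same subcomplex, read 7.78, 7.70 and 8.17 against 10.37, 10.93 and 10.31, a rise of 2.65 ± 0.20 (limma adjusted p = 1.2e-04). Cenpi, also of that subcomplex, read 6.47, 6.22 and 6.81 against 8.74, 9.26 and 8.86, a rise of 2.45 ± 0.19 (limma adjusted p = 1.3e-04). The other 2 probe sets of Cenpk, with WT means of 4.83 and 3.60, rose by 0.50 and 0.42. No KO array of Cenph, Cenpi or Cenpk overlapped the WT arrays.

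Cenpp and Cenpq belong to a further subcomplex of that network, and Cenpp passed the test whereas Cenpq did not. Cenpp read 6.76, 6.93 and 7.40 in WT and 9.31, 10.04 and 9.37 in KO, a rise of 2.54 ± 0.24 (limma adjusted p = 2.9e-04). Cenpq read 10.04, 10.08 and 10.27 against 10.04, 10.39 and 10.12, a difference of 0.05 ± 0.12 with overlapping groups (limma adjusted p = 0.78), which was 0.42 (adjusted p = 0.029) after scaling to the hybridization controls. Whether Cenpp and Cenpq differ from each other was not tested. Oip5, of the Mis18 complex that prepares centromeres for new CENP-A, rose by 2.22 ± 0.36 and had the widest KO spread of all members, 8.20 ± 0.80 (SD, n = 3). It read 9.06 in KO replicate 2 and 7.48 in KO replicate 3. Cenpn, which binds the CENP-A nucleosome, rose by 1.83, and Cenpm and Cenpl, of the same network, by 1.80 and 1.40. Cenpa itself, the histone variant that marks the centromere, rose by 1.36 ± 0.16, from 10.52 ± 0.09 to 11.88 ± 0.31 (SD, limma adjusted p = 7.4e-04), whereas its plain _at probe set differed by 0.24 (adjusted p = 0.43).

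In the outer kinetochore and the corona, the layers that meet the microtubule, 7 of 8 genes rose, with a median difference of 2.38. Cenpf, a large corona protein, read 7.01, 7.17 and 7.37 in WT and 10.11, 10.23 and 9.51 in KO, a rise of 2.76 ± 0.20 (limma adjusted p = 1.0e-04). Cenpe, the kinesin that carries chromosomes along microtubules, rose by 2.29 ± 0.14 (limma adjusted p = 5.8e-05). Both corona genes were lowest among KO arrays in KO replicate 3 and highest in KO replicate 2. All 4 genes of the Ndc80 complex, the main microtubule coupler, rose, by unequal amounts. Spc25 read 7.76, 7.59 and 7.85 in WT and 10.15, 10.57 and 10.03 in KO, a rise of 2.52 ± 0.15 (limma adjusted p = 5.8e-05), whereas its plain _at probe set, with a WT mean of 5.81, differed by 0.27 (adjusted p = 0.12). Nuf2 read 7.69, 7.49 and 7.80 against 10.04, 10.38 and 9.96, a rise of 2.47 ± 0.14 (limma adjusted p = 4.6e-05). Spc24 rose by 2.01 ± 0.15 and Ndc80 itself by 1.26 ± 0.17 (limma adjusted p = 0.0016). The difference between subunits was not tested, since each probe set responds on its own scale.

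Ska1, of the complex that keeps kinetochores on shrinking microtubule ends, read 6.78, 6.89 and 7.41 in WT and 9.28, 10.01 and 9.23 in KO, a rise of 2.48 ± 0.25 (limma adjusted p = 3.8e-04). Its plain _at probe set, with a WT mean of 4.97, differed by 0.01 (adjusted p = 0.96), and a further one rose by 0.94. Zwint, which connects the outer kinetochore with the checkpoint complex of Rod, Zwilch and Zw10, read 9.84, 9.90 and 10.10 against 10.05, 10.52 and 10.12. Its groups overlapped, and the difference was 0.28 ± 0.14 (limma adjusted p = 0.19), or 0.65 (adjusted p = 0.0075) after scaling to the hybridization controls. None of the 6 other probe sets of Zwint passed the test as deposited.

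**Figure D2:**
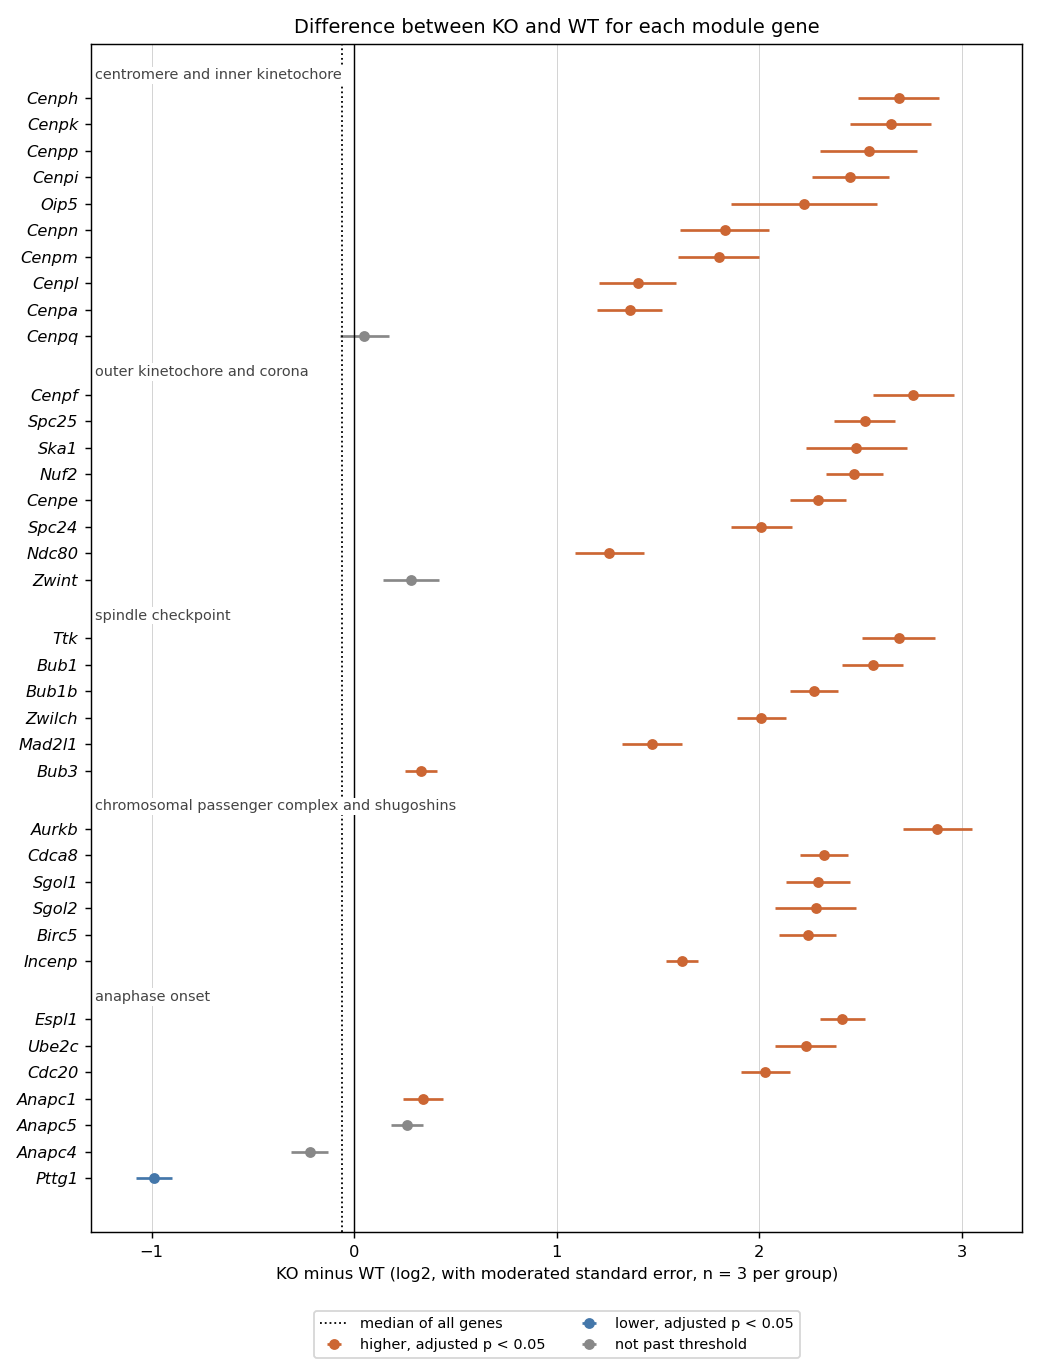
KO minus WT difference in log2 intensity (x axis) with the moderated standard error of limma (bars, n = 3 per group) for the 37 module genes, grouped by role and ordered by size. Most genes lie between 1.26 and 2.88, Bub3, Anapc1, Anapc4, Anapc5, Cenpq and Zwint lie near the median of all genes (dotted, -0.06), and Pttg1 lies at -0.99.

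All 6 genes of the spindle checkpoint rose, with a median difference of 2.14. Ttk, the Mps1 kinase that starts checkpoint signalling at unattached kinetochores, read 6.49, 6.76 and 6.87 in WT and 9.19, 9.76 and 9.22 in KO, a rise of 2.69 ± 0.18 (limma adjusted p = 7.7e-05). Bub1, the kinase that Ttk activity brings to the kinetochore, read 8.15, 8.08 and 8.44 against 10.61, 11.04 and 10.68, a rise of 2.56 ± 0.15 (limma adjusted p = 4.9e-05). Bub1b, which encodes BubR1 of the mitotic checkpoint complex, read 7.60, 7.47 and 7.64 against 9.74, 10.06 and 9.71, a rise of 2.27 ± 0.12 (limma adjusted p = 3.5e-05). For these kinases the lowest KO array exceeded the highest WT array by more than 2 log2 units.

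Zwilch, a subunit of the complex that brings dynein and the Mad proteins to kinetochores, read 7.78, 7.75 and 7.83 in WT and 9.60, 10.03 and 9.75 in KO, a rise of 2.01 ± 0.12 (limma adjusted p = 5.4e-05). Mad2l1, the Mad2 protein that binds and inhibits Cdc20, rose by 1.47 ± 0.15, from 9.98 ± 0.13 to 11.45 ± 0.26 (SD). Bub3, which holds Bub1 and BubR1 at the kinetochore, rose by only 0.33 ± 0.08, from 11.67 ± 0.03 to 12.00 ± 0.07 (SD, limma adjusted p = 0.022). Bub3 no longer passed on dropping replicate 1 or 2 of either genotype (adjusted p up to 0.077), with the replicate number as a block (adjusted p = 0.079) and with its probe sets averaged (0.07, adjusted p = 0.50).

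In the chromosomal passenger complex, which corrects faulty attachments, and the shugoshins, which protect cohesin at the centromere, all 6 genes rose, with a median difference of 2.28. Aurkb, the kinase of the complex, read 7.45, 7.38 and 7.68 in WT and 10.15, 10.73 and 10.25 in KO, a rise of 2.88 ± 0.17 (limma adjusted p = 4.9e-05), the largest among the 37 genes. Cdca8, which encodes Borealin, read 9.21, 9.19 and 9.46 against 11.60, 11.78 and 11.43, a rise of 2.32 ± 0.12 (limma adjusted p = 3.8e-05). Birc5, or Survivin, which docks the complex on chromatin, rose by 2.24 ± 0.14, and Incenp, its scaffold, by 1.62 ± 0.08 (limma adjusted p = 3.3e-05). Incenp had a narrow spread, with WT arrays from 9.92 to 10.04 and KO arrays from 11.54 to 11.63.

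Sgol1 read 7.45, 7.66 and 7.82 in WT and 9.73, 10.24 and 9.82 in KO, a rise of 2.29 ± 0.16 (limma adjusted p = 9.5e-05). Sgol2 read 6.53, 6.46 and 6.99 against 8.85, 9.29 and 8.67, a rise of 2.28 ± 0.20 (limma adjusted p = 2.3e-04). In both shugoshins WT replicate 3 was the highest WT array and KO replicate 2 the highest KO array.

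Among genes of anaphase onset 4 of 7 rose (57.1%) and 1 fell (14.3%), with a median difference of 0.34. Of all genes 18.6% rose and 18.6% fell, so the count of falling genes does not set this role apart. Espl1, separase, the protease that cuts cohesin, read 7.39, 7.45 and 7.55 in WT and 9.79, 10.08 and 9.74 in KO, a rise of 2.41 ± 0.11 (limma adjusted p = 2.7e-05). Ube2c, the ubiquitin-conjugating enzyme of the anaphase-promoting complex, read 10.40, 10.35 and 10.33 against 12.48, 12.93 and 12.34, a rise of 2.23 ± 0.15 (limma adjusted p = 8.9e-05). Cdc20, which activates that complex in mitosis and is the target of the checkpoint, read 9.96, 10.03 and 10.08 against 11.99, 12.27 and 11.89, a rise of 2.03 ± 0.12 (limma adjusted p = 4.9e-05). In each of these the groups lay more than 1.5 log2 units apart.

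Pttg1, securin, the inhibitor that separase is held by until anaphase, was the member that fell. It read 12.14, 12.31 and 12.38 in WT and 11.36, 11.28 and 11.24 in KO, a fall by 0.99 (SE 0.09, 1.98-fold, limma adjusted p = 3.2e-04). Every KO array lay below every WT array, and KO replicate 2, the highest KO array for the 36 other members, lay between the other KO arrays. The other 2 probe sets of Pttg1 fell too, by 1.03 and 1.10. Without any 1 array the difference stayed between -1.06 and -0.94, and the fall was 0.62 (adjusted p = 0.0059) after scaling to the hybridization controls. Pttg1, Aurkb and Birc5 lie on chromosome 11, which also holds Mir142, and of these members Aurkb and Birc5 rose. Of the 3 nearest genes with a probe set on either side of Pttg1, the adjacent Slu7, a splicing factor, fell by 0.71 (limma adjusted p = 9.5e-04) and the other 5 did not pass the test, with WT means of only 3.60 to 6.10, where the median probe-set mean was 5.77.

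The listed core subunits of the anaphase-promoting complex, which are made throughout the cell cycle, differed little. Anapc1 rose by 0.34 ± 0.10, from 10.02 ± 0.05 to 10.36 ± 0.15 (SD, limma adjusted p = 0.042), a call lost without any 1 of the 3 WT arrays, KO replicate 2 or KO replicate 3 (adjusted p up to 0.12) and with the replicate number as a block (adjusted p = 0.072). Anapc5 read 12.36, 12.33 and 12.36 in WT and 12.60, 12.70 and 12.52 in KO, a difference of 0.26 ± 0.08 without overlap (limma adjusted p = 0.057). Anapc5 passed under several other settings, among them scaling to the hybridization controls (0.63, adjusted p = 0.0020), and 4 of its 5 other probe sets rose. Anapc4 read 10.04, 10.17 and 10.14 against 9.78, 10.02 and 9.90, a difference of -0.22 ± 0.09 without overlap (limma adjusted p = 0.13), which turned to 0.15 after scaling to the hybridization controls.

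Among other genes of the same pathways, listed from general knowledge, 29 of 51 measured rose (56.9%) and 5 fell (9.8%). The median difference was 0.53, and of all genes 18.6% rose and 18.6% fell. Of 24 further centromere and kinetochore genes 18 rose (75.0%) and 1 fell (4.17%), with a median of 0.87. Kntc1, the Rod subunit that works with Zwilch, rose by 2.47 ± 0.24, Ska3, a partner of Ska1, by 2.38 ± 0.18 and Trip13, which recycles Mad2, by 2.27 ± 0.12. Mad2l1bp, the adaptor through which Trip13 reaches Mad2, fell by 0.73 (limma adjusted p = 0.0098), a call lost after scaling to the hybridization controls (adjusted p = 0.10). Of the complex that Zwint binds, Zwilch and Kntc1 rose, and Zw10 differed by 0.08 (limma adjusted p = 0.56) with overlapping groups.

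Of 14 further genes of the anaphase-promoting complex and its regulators 8 rose (57.1%) and 2 fell (14.3%), with a median of 0.42. The falling share was near the 18.6% of all genes that fell. Fbxo5, or Emi1, an inhibitor of the complex outside mitosis, rose by 1.34 ± 0.15, the core subunit Cdc27 by 0.88 ± 0.11 and the chain-elongating enzyme Ube2s by 0.75 ± 0.10. The Ube2s call was lost in its plain _at probe set (0.06, adjusted p = 0.70). Anapc11 and Anapc16 fell by 0.47 and 0.43 (limma adjusted p = 0.032 and 0.023), calls lost when some arrays were left out (adjusted p up to 0.099 and 0.073) and after scaling to the hybridization controls, and for Anapc11 also in its plain _at probe set (adjusted p = 0.98). Of 13 genes of cohesin and its regulators 3 rose (23.1%) and 2 fell (15.4%), with a median of 0.04, shares near the 18.6% of all genes in each direction. Those that rose were Esco2, by 2.93 ± 0.23, Cdca5, or sororin, by 2.37 ± 0.15, both of which act in setting up cohesion in S phase, and the ring subunit Smc3, by 0.53 ± 0.08. Esco1, the acetyltransferase related to Esco2, fell by 1.06 ± 0.08 (limma adjusted p = 1.4e-04), while Mau2, of the cohesin loader, fell by 0.52 (limma adjusted p = 0.046), a call lost without any 1 array other than WT replicate 3. The count of falling genes, 5 over these lists, was 2 without WT replicate 2 or KO replicate 1, 3 without WT replicate 1, WT replicate 3 or KO replicate 3, and 1 after scaling to the hybridization controls, where 42 rose. With the replicate number as a block 3 fell and 27 rose.

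Beside the module, 34 of 40 replication genes rose with a median of 1.20, and 32 of 35 genes of mitotic entry and cytokinesis rose with a median of 2.19. None of either list fell. The module median of 2.23 was near that of the mitotic list. No test of a difference between the lists was made.

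**Figure D3:**
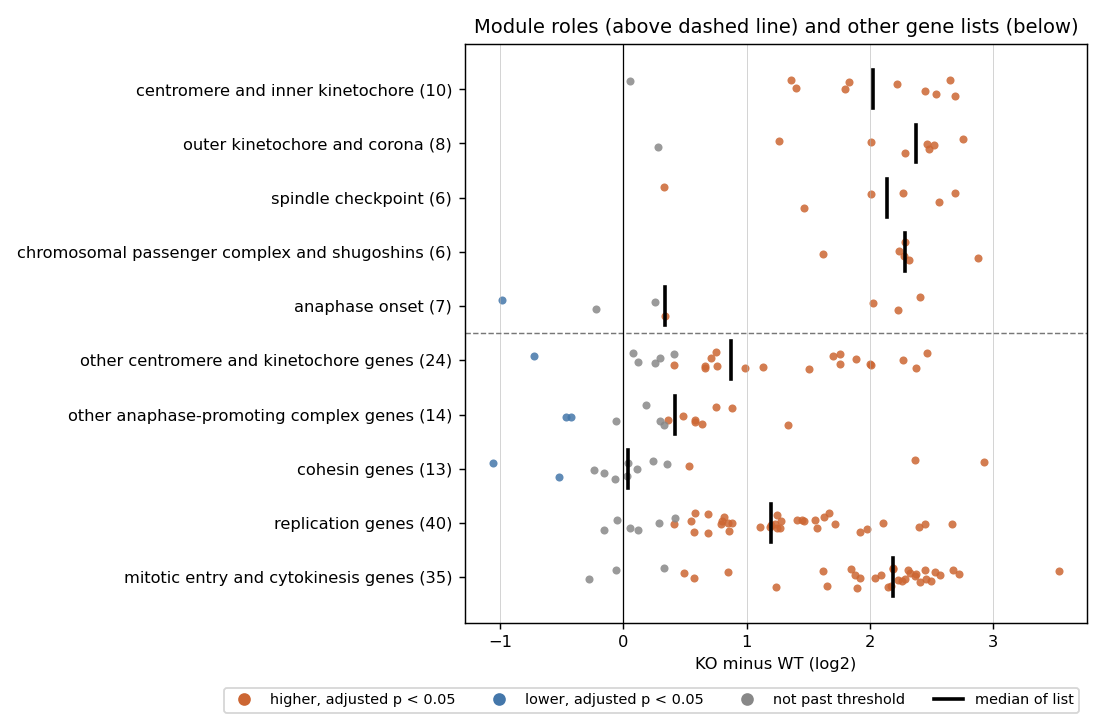
KO minus WT difference in log2 intensity (x axis) for each gene (points, coloured by the limma call) in the 5 roles of the module, above the dashed line, and in 5 other lists, below it, with black bars for the list medians and the number of genes in brackets. The role medians are 2.03, 2.38, 2.14, 2.28 and 0.34 from top to bottom, and those of the other lists 0.87, 0.42, 0.04, 1.20 and 2.19.

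Of the 37 members 22 had several probe sets, 49 further ones in all. Of these 49, 24 rose, 2 fell and 23 did not pass, and 0 were called against the direction of a called brightest probe set. A second probe set rose for 15 of the 18 rising members that had several. Cenpe differed by 3.24 and Cenpn by 2.41 in a second probe set. The further probe sets of Cenpa, Spc25 and Ttk did not pass the test. Of the 23 that did not pass, 16 had a WT mean below 6.5. Averaged over all probe sets of a gene, the difference shrank by more than 1.5 times in fold for Cenpa (0.64), Cenpk (1.19), Cenpp (1.69), Cenpf (1.56), Spc25 (1.39), Ska1 (1.14), Ttk (1.38) and Incenp (0.91), each still past the threshold. Trip13, outside the module, went to 1.55. Members read from a probe set with the suffix _s_at or _x_at, which can bind related transcripts, numbered 8 of 37, namely Bub3, Cdca8, Incenp, Aurkb, Cdc20, Pttg1, Anapc4 and Anapc5.

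**Figure D4:**
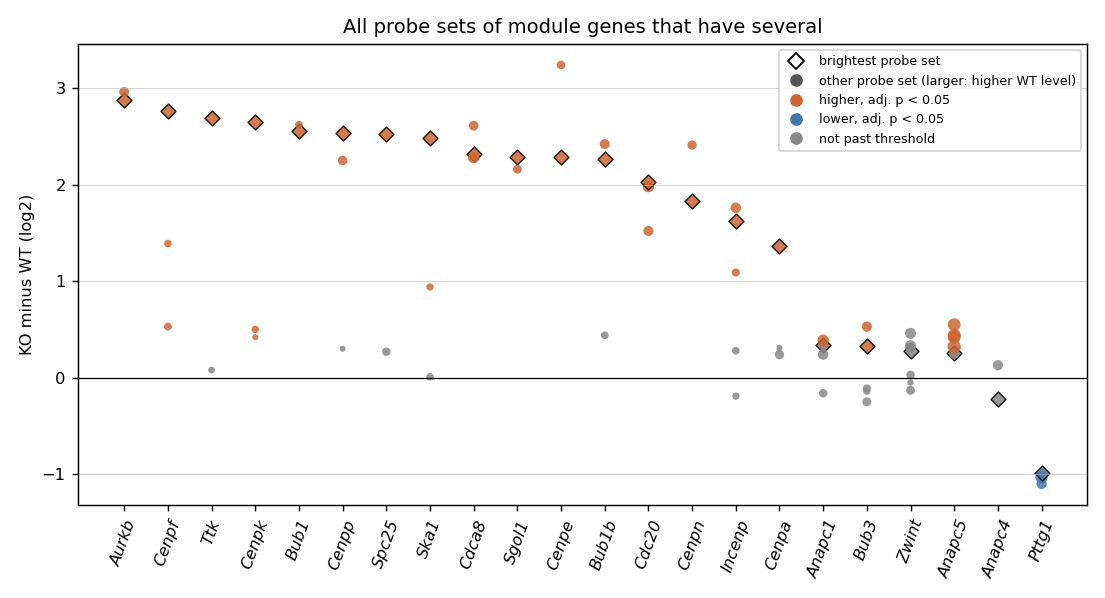
KO minus WT difference in log2 intensity (y axis) for every probe set of the 22 module genes that have several, with the brightest as a diamond and the others as circles that grow with the WT level, coloured by the limma call. The 3 probe sets of Pttg1 all lie near -1, between -0.99 and -1.10, and those of Aurkb lie between 2.88 and 2.96.

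The rising members shared their highest KO array, whereas the lowest was KO replicate 1 in some and KO replicate 3 in others. KO replicate 2 was the highest KO array for 32 of the 32 rising members, above the mean of the other KO arrays by 0.06 to 1.30 with a median of 0.45. Among all rising genes, KO replicate 2 was the highest KO array for 61.5%. The same held for 33 of the 34 rising replication genes and 32 of the 32 rising genes of mitotic entry and cytokinesis. Without KO replicate 2, 30 members rose, and the median difference was 2.05. Left out in turn, the arrays gave 30 to 31 rising members and medians of 2.05 to 2.35.

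Cell type markers moved with the genotype too, and their part in the rise of the module was not tested. All 11 measured erythroid markers rose, with a list mean of 7.64 to 8.03 in WT and 10.68, 11.32 and 10.28 in KO replicates 1, 2 and 3, so that KO replicate 2 was the highest there as well, for 11 of 11 genes. All 6 progenitor markers rose, from list means of 5.82 to 5.98 to list means of 8.49 to 8.78. All 12 neutrophil markers rose, from 6.40 to 7.43 in WT to 10.62 to 12.93 in KO, and all 10 markers of eosinophils, basophils and mast cells rose, from 6.22 to 6.34 to 10.43 to 11.00. In contrast to the module, the means of these neutrophil, progenitor and eosinophil, basophil and mast cell lists were lowest among KO arrays in KO replicate 2. By gene, it was the lowest for 12 of 12, 3 of 6 and 8 of 10. Of 7 monocyte and macrophage markers 6 rose and of 6 megakaryocyte markers 4.

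All 12 measured T cell markers fell. KO replicate 2, where the module was highest, gave the lowest KO value for 12 of 12 of them. Of 8 B cell markers 0 passed the test, with list means of 6.20 to 6.58 in WT and 6.58 to 7.68 in KO. Among them Ebf1, a transcription factor of early B cells, read 5.91, 11.22 and 5.64 in KO. Cd79a, of the B cell receptor, read 6.58, 9.40 and 6.18. In both, KO replicate 2, where the module was highest, stood apart. Of the 8 markers, KO replicate 2 was the highest KO array for 5 and the lowest for 3. Among the latter, Ms4a1 read 8.80, 5.89 and 7.71 in KO, and Blk 6.91, 5.58 and 6.23. Of 6 plasma cell markers 2 rose and 1 fell, of 4 NK cell markers 3 fell, and of 5 immature thymocyte markers 1 rose. Among all genes 18.6% rose and 18.6% fell. The 1 falling plasma cell marker of 6 and the 1 rising immature thymocyte marker of 5 are near that share, so these counts do not set either list apart. The immature thymocyte markers had a list mean of 9.38 in KO replicate 2 against 7.65 and 7.54 in the other KO arrays. Rag1, the recombinase of immature lymphocytes, read 6.40, 11.41 and 6.03 in KO, and Rag2 read 5.07, 8.73 and 4.92. The rest of that list did not stand apart so in KO replicate 2. Dntt was lowest there (8.48, 7.91 and 8.34), and Ptcra read 4.92, 5.10 and 5.23. The B cell and immature thymocyte markers named here were singled out after their values were seen, and their part in the result was not tested. RMA values carry no detection calls, so none of these markers can be given as absent.

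**Figure D5:**
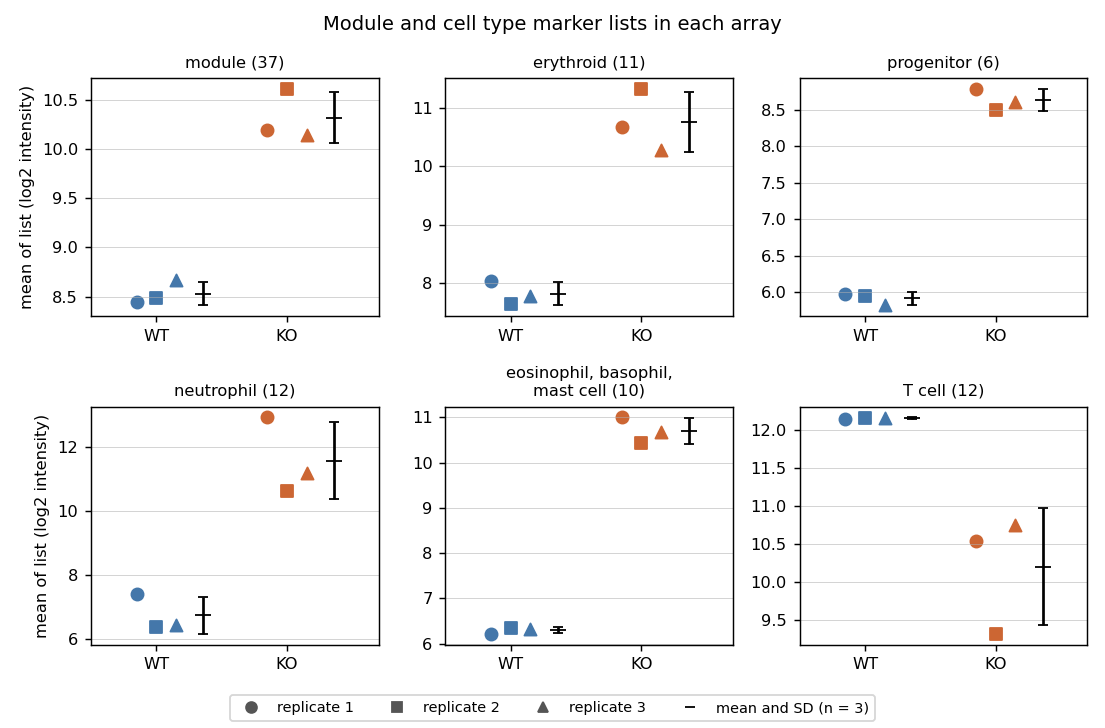
Mean log2 intensity (y axis, own scale in each panel) of the 37 module genes and of 5 cell type marker lists in each of the 3 WT and 3 KO arrays, with the mean and SD (n = 3) beside them and the number of genes in brackets. In the KO arrays the module and the erythroid markers are highest in replicate 2 (squares), where the other marker lists shown are lowest.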

How the data were processed

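Each array came as a column of deposited log2 intensities per probe set, made by the authors with RMA, per the submitters' processing notes (version not given in the sources used here). It was used as deposited, with no filter or pseudocount. Leaving out 64 control probe sets of 45101, 45037 were tested; 34945 had 1 gene in the platform annotation, 932 several, and 9160 were not listed. Genotype was the only term of the model, fitted with limma 3.58.1 in R 4.3.3 (lmFit, eBayes, 2-sided, Benjamini-Hochberg). Replicates are separate mice and the RNA was amplified before hybridization, per the labels.

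The members, the lists and the tests were chosen with earlier results of these data known. Full values are given, per role, for the 4 largest differences in either direction among members past the threshold and for members that did not pass or moved against most of their role; of other pathway lists, up to 3 genes in each direction are named. Slu7 and some probe sets were singled out after their values were seen. In simulated data the test called 6 of 67 shifts of 0.5, 48 of 67 of 1 and 62 of 66 of 2, with 3 false calls. Far fewer probe sets were shifted there than were called here, so these rates need not hold for the arrays.

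Other settings tried were dropping dim probe sets (under the median level), repeated quantile normalization, array medians, scaling to 18 hybridization controls, trend with robust fitting, array weights, a replicate block, an adjusted p below 0.10, at least 1.5-fold, each array left out, averaging all probe sets of a gene, and using those with the plain suffix _at. Promoter windows and microRNAs are from RefSeq, GRCm38.p6. A further promoter stretch is not reported here.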

Additional observations from a re-analysis of the deposited data

How the results depend on the processing

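The number of rising module genes stayed between 30 and 35 and that of falling ones at 1 under every alternative run. Scaling to the hybridization controls moved the median of all genes from -0.06 to 0.31 and the module median from 2.23 to 2.59. Under it 17309 probe sets were higher in KO and 2337 lower, which made 88.1% of the calls higher against 47.2% as deposited (6242 and 6986), and 1 of the other pathway genes fell in place of 5. Requiring at least 1.5-fold left 3856 falling probe sets and 2 falling pathway genes. The mean of all probe sets of a gene gave a module median of 1.71. Leaving out each array gave 2 to 4 falling pathway genes. With a replicate block 30 module genes rose and 3 other pathway genes fell. The labels do not say that the numbers pair mice, and deviations of same-numbered arrays correlated at 0.10, -0.24 and -0.20, so no pairing was assumed. Directions turned for Cenpq (-0.05 without KO replicate 2) and Anapc4 (0.15 after scaling to the hybridization controls, 0.13 in its plain _at probe set), neither of which was called; the cause was not tested. With the plain _at probe set Cenpa (0.24, adjusted p = 0.43), Spc25 (0.27, adjusted p = 0.12), Ska1 (0.01, adjusted p = 0.96), Ube2s (0.06, adjusted p = 0.70) and Anapc11 (adjusted p = 0.98) were not called. Of 884 values of named genes under alternatives, 827 kept their direction and side of the threshold. RMA values carry no detection calls, so how far dim probe sets lie above background is not known.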
